A study of Homo sapiens with 32 samples.

Results

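The comparison described here is between a 12 h exposure to cannabidiol (CBD) and the same time in its solvent alone, in the line SK-N-BE(2). It rests on 8 of the 32 RNA-seq samples of a time course, chosen by their labels alone: 4 CBD samples and 4 vehicle samples taken at 12 h. Of the 22610 entries in the table of expression values, 12621 had a mean of at least 1 FPKM (fragments per kilobase of transcript scaled to the mapped reads of each sample) over the 32 samples and were tested. SK-N-BE(2) is an established human neuroblastoma line that carries extra copies of the MYCN oncogene. All cells were plated in 6-well dishes the day before. The treated samples received 20 µM CBD in ethanol and the vehicle samples 0.1% ethanol, so both groups carried the solvent, and samples were taken at 3, 6, 12 and 24 h with 4 per treatment and time. The line was not modified further, 1 dose was used, and no sample was taken before treatment. Treatments were made in quadruplicate according to the methods, and the labels number the samples 1 to 4 within each group. Neither says that the 4 came from cultures kept apart before plating, so the spread between samples may be that between wells. For each gene, p-values and standard errors (SE) use 1 spread estimated within the groups of all 32 samples. They do not measure the spread of the 12 h samples alone.

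The deposited values carry no read counts. Depth relative to the other samples, estimated from the lowest values of rarely detected genes, was 0.987 to 1.01 in the vehicle samples at 12 h and 0.787 to 1.01 in the CBD samples, with CBD sample 1 the shallowest. The difference of -0.0878 between the group means had p = 0.143 in an exact two-sided permutation test. Of the neuroblastoma markers, PHOX2A, HAND2, TH, CHGA and MYCN were abundant in all 8 samples, at 201 FPKM (TH) or more, while the immune marker CD3E and the epithelial marker KRT5 were at or near 0. The sum of 4 immune markers was 1.21 to 1.66 FPKM with CBD and 1.045 to 1.29 with vehicle, that of 4 epithelial markers 2.55 to 2.97 against 1.93 to 2.11, almost all of it EPCAM, and that of 6 fibroblast markers 20.1 to 20.5 against 20.0 to 20.6. The part of these markers in the results was not tested. RNA from whole wells was measured, so fewer cells of one kind and less RNA per cell cannot be told apart.

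CBD is a lipophilic compound of the cannabis plant that is used as a medicine for some childhood epilepsies. Several of the pathways read out below work through a sensor and a short DNA element. Metallothioneins are small cysteine-rich proteins that bind zinc and copper, and their genes are switched on when zinc activates the factor MTF1 at metal response elements. The enzymes of cholesterol synthesis are transcribed by SREBP factors, which are released from the endoplasmic reticulum when membrane sterol falls. ATF4 is made when translation initiation is slowed and drives genes of amino acid supply, NFE2L2 drives genes of glutathione and detoxification, and HIF1A drives genes of glucose use and oxygen supply.

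The promoter windows of 3 metallothionein genes and the zinc exporter gene SLC30A1 are shown because these genes had among the largest rises at 12 h and share the metal response element, searched as TGCACNC and TGCGCNC on both strands. The windows hold the 250 bases before the RefSeq start of each gene on GRCh38.p14, written 5′ to 3′ on the strand of the gene, with matches in capitals. Those of MT2A (chr16:56608334-56608583, plus strand), MT1X (chr16:56682220-56682469, plus strand), MT1H (chr16:56669564-56669813, plus strand) and SLC30A1 (chr1:211579162-211579411, minus strand) read as follows.
MT2A: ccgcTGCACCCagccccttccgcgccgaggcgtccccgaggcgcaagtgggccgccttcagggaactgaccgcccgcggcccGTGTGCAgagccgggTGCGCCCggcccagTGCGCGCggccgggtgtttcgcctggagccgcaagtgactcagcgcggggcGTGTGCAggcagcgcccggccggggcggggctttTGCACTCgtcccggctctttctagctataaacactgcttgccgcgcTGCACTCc
MT1X: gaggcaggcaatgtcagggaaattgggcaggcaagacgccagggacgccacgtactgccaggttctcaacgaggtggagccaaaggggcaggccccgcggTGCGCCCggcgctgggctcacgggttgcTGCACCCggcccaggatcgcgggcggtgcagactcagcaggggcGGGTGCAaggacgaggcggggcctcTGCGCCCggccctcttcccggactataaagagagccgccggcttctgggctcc
MT1H: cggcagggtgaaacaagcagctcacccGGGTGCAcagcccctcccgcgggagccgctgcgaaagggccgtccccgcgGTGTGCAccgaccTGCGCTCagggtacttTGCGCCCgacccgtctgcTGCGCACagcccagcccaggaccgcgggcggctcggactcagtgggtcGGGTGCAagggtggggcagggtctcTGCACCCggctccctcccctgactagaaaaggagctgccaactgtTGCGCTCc
SLC30A1: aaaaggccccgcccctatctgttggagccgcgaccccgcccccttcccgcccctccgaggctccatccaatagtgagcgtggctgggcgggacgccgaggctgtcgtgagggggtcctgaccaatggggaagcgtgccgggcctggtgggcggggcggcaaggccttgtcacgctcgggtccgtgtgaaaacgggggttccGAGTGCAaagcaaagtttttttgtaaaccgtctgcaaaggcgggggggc
The MT2A window held 7 matches, 5 on the strand of the gene and 2 on the other, from 246 to 8 bases before the start. MT1H held 8 matches, MT1X held 4, and SLC30A1 held 1, on the other strand 49 bases before the start. Over all 35116 RefSeq windows of the same length, 24.8% held at least 1 match of either form and 0.37% held 4 or more. A window was given for 3 of the 7 tested metallothionein genes. A match is a description of the letters and not a measured binding site.

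A window of ASNS, the asparagine synthetase gene, is shown for the amino acid response element (TGATGNAA, in capitals), and one of BNIP3, a mitochondrial regulator of cell death and mitophagy, for the core of the hypoxia response element (ACGTG, in capitals, read on both strands and overlapping itself). They lie at chr7:97872409-97872658 and chr10:131981924-131982173, both on the minus strand of GRCh38.p14.
ASNS: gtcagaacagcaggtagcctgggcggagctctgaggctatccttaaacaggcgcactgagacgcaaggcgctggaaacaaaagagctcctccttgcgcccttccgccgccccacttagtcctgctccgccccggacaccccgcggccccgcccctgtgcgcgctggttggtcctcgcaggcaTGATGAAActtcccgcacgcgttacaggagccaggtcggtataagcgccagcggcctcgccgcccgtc
BNIP3: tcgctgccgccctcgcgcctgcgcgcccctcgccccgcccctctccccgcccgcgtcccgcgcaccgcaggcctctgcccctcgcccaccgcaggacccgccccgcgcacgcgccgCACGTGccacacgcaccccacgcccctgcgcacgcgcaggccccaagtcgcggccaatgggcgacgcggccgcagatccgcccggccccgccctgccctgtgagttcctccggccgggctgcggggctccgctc
The ASNS match lay 68 bases before the start. TGATGNAA was found in 3.14% of all windows, in 4 of 25 windows of the ATF4 and CHOP list and in 3 of 16 of the serine and asparagine synthesis list. ACGTG was found in 18.5% of all windows and 7 of 23 windows of the hypoxia list. The antioxidant response element TGACNNNGC was found in 10.9% of all windows and 5 of 16 of the NFE2L2 target windows, and the sterol response element TCACNCCAC in 0.883% of all windows and in none of 12 mevalonate and 12 sterol enzyme windows. These windows covered 7 of 9 tested mevalonate and 10 of 13 tested sterol enzyme genes. Only this letter pattern was searched, and with so low a share, none in so few windows says little about these promoters.

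At 12 h, CBD changed many transcripts by small amounts and few by large ones. With limma on log2(FPKM + 1), 2533 of the 12621 genes (20.1%) differed at a Benjamini-Hochberg adjusted p under 0.01, 1117 of them higher with CBD (8.85%) and 1416 lower (11.2%). A gene is called below when it passed this threshold, and every log2 fold change is CBD minus vehicle on the log2(FPKM + 1) scale, which understates the change of genes of low level. The spread was pooled over all 32 samples, and with the 12 h samples fitted alone 1785 genes were called. Counts of list members called at 12 h are to be read beside these shares of 8.85% higher and 11.2% lower. The 4 CBD values lay wholly above or below the 4 vehicle values for 2409 called genes (19.1% of those tested). The median size of the called changes was 0.17, and 1989 of them (78.5%) were under 0.25. A change of at least 0.5 was reached by 96 called genes (0.761%), 73 higher and 23 lower, and a change of at least 1 by 15 higher and 2 lower. The median change over all genes tested was -0.0043. The large changes were mainly rises, while the called changes as a whole were more often falls, a split in which 44.1% were higher. That split depended on the processing. The share higher was 48.9% with median-ratio scaling, 40.8% with quantile normalization and 39% among genes with a mean of at least 5 FPKM. Among 621 tested short RNA entries, which a library of poly(A) RNA samples poorly, 6 were called. Gene positions are given on GRCh37, the build of the deposited values.

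**Figure D1:**
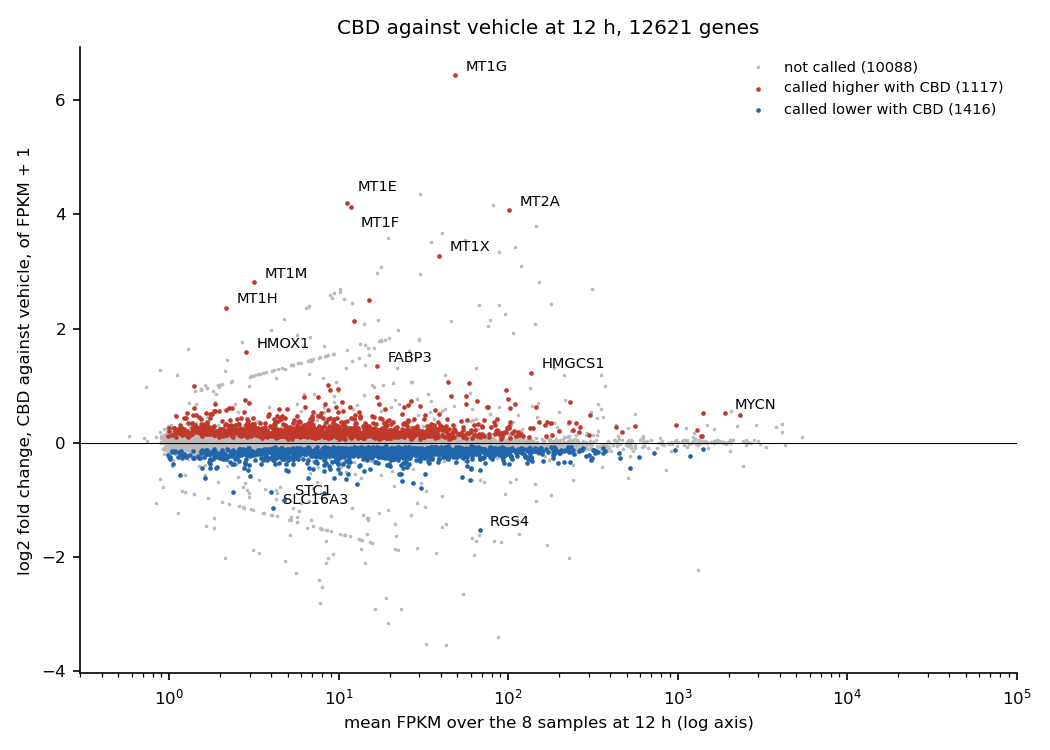
Each point is 1 tested gene, placed by its mean expression in FPKM (log axis) and its log2 fold change at 12 h (CBD minus vehicle, log2 of FPKM + 1). Of the called genes, 1117 lie above and 1416 below 0, with MT1G highest and RGS4 lowest of the called genes and wider differences among genes that were not called, and 107 genes with a mean under 0.3 FPKM at 12 h are left of the axis and not shown.

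The effect at 12 h was also set against the effects at 6 and 24 h. The difference of the effects was called for 294 genes between 12 and 6 h (2.33% of those tested; 181 with the 12 h effect above and 113 below), for 1028 genes between 24 and 12 h (8.15%; 592 with the 24 h effect above and 436 below), and for 88 genes between 12 h and the mean of 6 and 24 h (0.697%; 49 above and 39 below). These differences all use the 12 h samples and so are not independent of each other or of the 12 h comparison. Counts of list members called in these contrasts are to be read beside these shares of 2.33%, 8.15% and 0.697%, in either direction. Counts of the first and last were less stable than those at 12 h. Without CBD 12 h sample 1, 183 genes were called between 12 and 6 h and 32 against the mean of 6 and 24 h. For the latter, the count was 45, 54, 50 and 42 without vehicle samples 1 to 4 at 12 h and 49 without CBD sample 2. The same contrast was 55.7% higher in the main scaling, 67.8% with median-ratio scaling and 42.4% with quantile normalization. With short RNA entries left out of the fit it held 74 calls, 66.2% of them higher.

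Genes of metal handling had the largest called rises, short RNAs left aside. All 7 metallothioneins that passed the expression filter were called higher, against 8.85% of all genes tested, with log2 fold changes from 2.37 to 6.43 and a median of 4.08. MT1A, MT1B, MT1L and MT3, further members of the family, were below the filter and not tested. The filter averaged over CBD and vehicle samples alike. MT1E, MT1F, MT1G, MT1H and MT1M were below 1 FPKM in every vehicle sample at 12 h and could pass through their CBD values. The count of called members was thus partly set by the filter, and its distance from 8.85% is no separate support. The counts and values below rest on short genes of similar sequence: between 1.24% and 18.7% of the 50-base stretches of these 7 genes also occur in other genes, mostly other metallothioneins and their pseudogenes, so reads could be exchanged within the family.

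MT2A (chr16:56642496-56643409), the most abundant of them, was at 186, 204, 210 and 169 FPKM in CBD samples 1 to 4 and at 10.9, 9.05, 11.1 and 10.7 FPKM in vehicle samples 1 to 4. Every CBD sample was over 10 times every vehicle sample, and the groups did not overlap. The log2 fold change was 4.08 ± 0.18 (SE with the spread pooled over all 32 samples, 4 samples per group, adjusted p = 1.13e-15, limma). The FPKM ratio of the group means was 18.4.

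MT1G (chr16:56700642-56701977) was at 91.4, 112, 112 and 75.2 FPKM with CBD and at 0.122, 0.116, 0.285 and 0 FPKM with vehicle. It was close to silent without CBD, and its log2 fold change of 6.43 ± 0.21 was the largest of all genes called at 12 h outside the short RNAs (adjusted p = 1.94e-18, limma). MT1X was at 69.0, 76.2, 75.9 and 65.0 FPKM with CBD against 7.39, 6.24, 6.14 and 6.13 FPKM with vehicle, a log2 fold change of 3.28 ± 0.18. MT1X and MT2A were the 2 members with a clear level in vehicle cells, where the other 5 were each below 1 FPKM.

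MT1E was at 20.3, 24.1, 26.6 and 17.5 FPKM with CBD and at 0.312, 0.130, 0.299 and 0.257 FPKM with vehicle (log2 fold change 4.20 ± 0.30). MT1F was at 23.8, 24.9, 21.9 and 22.0 FPKM with CBD and at 0.427, 0.511, 0.301 and 0.251 FPKM with vehicle (4.14 ± 0.16). Both were thus at similar levels with CBD and nearly absent without it. MT1M was at 5.65, 6.67, 8.02 and 4.94 FPKM with CBD and listed at 0 in vehicle samples 3 and 4, with 0.0572 and 0.0570 FPKM in the others (2.81 ± 0.27). MT1H was at 3.62, 5.43, 5.24 and 3.07 FPKM with CBD and listed at 0 in 3 vehicle samples, with 0.0577 FPKM in the other (2.37 ± 0.18).

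Only 2 of 16 tested zinc transporters were called, 1 in each direction (6.25% each, against 8.85% higher and 11.2% lower over all genes). SLC30A1, which exports zinc from the cell, was at 11.8, 11.7, 12.1 and 12.4 FPKM with CBD and at 6.01, 5.74, 5.69 and 5.81 FPKM with vehicle, a log2 fold change of 0.93 ± 0.04 (adjusted p = 1.39e-16, limma). SLC39A10, which imports zinc, was at 9.54, 9.37, 9.08 and 9.93 FPKM with CBD and at 15.6, 15.9, 16.2 and 17.4 FPKM with vehicle, a log2 fold change of -0.72 ± 0.04 (adjusted p = 1.13e-12, limma). The exporter was thus about doubled and the importer reduced in every CBD sample, without overlap between the groups.

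The effects on these metal genes were smaller at 24 h than at 12 h. The median log2 fold change of the 7 metallothioneins was 2.79, 4.57, 4.08 and 1.69 at 3, 6, 12 and 24 h, and all 7 were called lower in effect at 24 h than at 12 h. The share over all genes in this contrast was 8.15%, in either direction. Between 6 and 12 h the decline was called for MT1X alone (difference -1.29, adjusted p = 0.00265, limma). The effect on SLC30A1 fell from 1.78 at 6 h to 0.93 at 12 h and 0.27 at 24 h, and that on SLC39A10 went from -1.78 through -0.72 to 0.03, and each of these steps was called. MT1G was the one metallothionein whose 12 h effect was called above the mean of its 6 and 24 h effects, by 1.44 (adjusted p = 0.00231, limma).

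**Figure D2:**
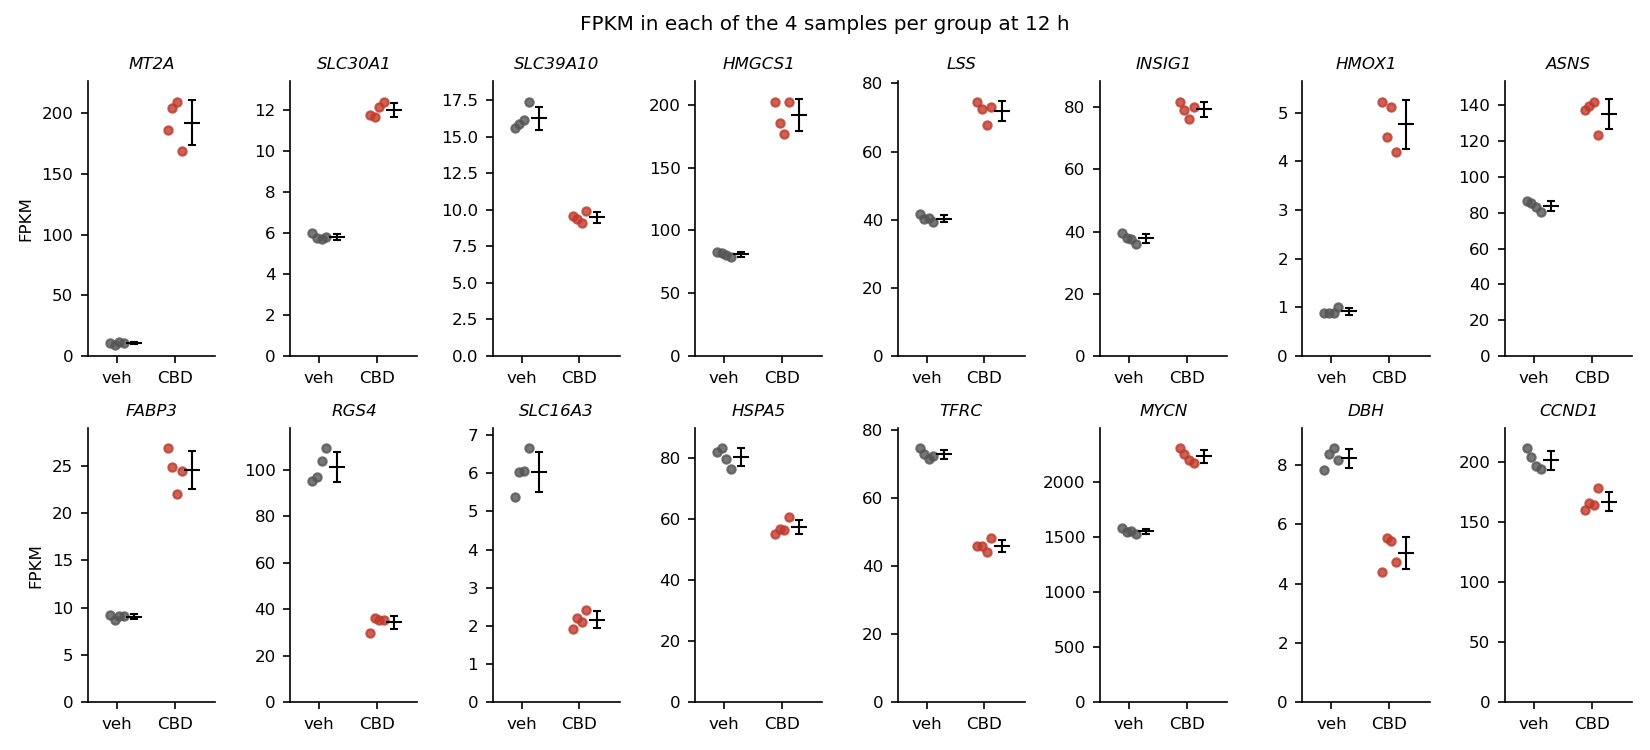
FPKM of 16 genes in each of the 4 CBD and 4 vehicle samples at 12 h (linear axes from 0), with the group mean ± SD beside the points. In every gene drawn the CBD and vehicle values are separate, from MT2A at 169 to 210 FPKM against 9.05 to 11.1 FPKM to RGS4 at 30.0 to 36.4 FPKM against 95.1 to 109 FPKM.

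Transcripts of cholesterol synthesis enzymes rose almost throughout. Of 9 tested enzymes of the mevalonate pathway, which builds isoprenoid units from acetyl-CoA, 8 were called higher and none lower, with a median log2 fold change of 0.63. All 13 tested enzymes of the sterol branch, which turn those units into cholesterol, were called higher, with a median of 0.62. Over all genes tested the share of called rises was 8.85%. These counts stayed at 8 and at 12 to 13 when each 12 h sample was left out in turn.

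HMGCS1, which makes HMG-CoA (chr5:43287572-43313614), was at 202, 186, 177 and 202 FPKM with CBD and at 83.0, 81.8, 80.2 and 78.8 FPKM with vehicle. The lowest CBD value was more than 2 times the highest vehicle value, and the log2 fold change was 1.23 ± 0.04 (adjusted p = 1.94e-18, limma). MVD, which makes isopentenyl diphosphate, was at 62.3, 59.7, 57.5 and 61.5 FPKM against 29.9, 29.4, 28.1 and 25.4 FPKM, a log2 fold change of 1.07 ± 0.07.

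Other steps of the mevalonate pathway rose by less. IDI1, the isomerase of its end product, changed by 0.73, MVK, the mevalonate kinase, by 0.67, and ACAT2, the thiolase of the first step, by 0.61. The prenyl diphosphate synthases FDPS and GGPS1 rose by 0.37 and 0.34. PMVK, the second kinase of the pathway, was at 37.3 to 38.3 FPKM with CBD and 36.4 to 39.4 FPKM with vehicle, and its log2 fold change of -0.002 ± 0.057 had an adjusted p of 0.993 in limma, so PMVK was the 1 enzyme of the list whose groups overlapped.

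Along the sterol branch, MSMO1, a demethylase of sterol intermediates, was at 131, 131, 121 and 131 FPKM with CBD and at 68.1, 67.2, 67.2 and 65.2 FPKM with vehicle, a log2 fold change of 0.93 ± 0.03. LSS, which closes the sterol rings, was at 74.6, 72.4, 67.8 and 73.2 FPKM against 41.6, 40.1, 40.4 and 39.2 FPKM, a log2 fold change of 0.82 ± 0.05. DHCR7, the last step of one arm of the pathway, changed by 0.78, FDFT1 (squalene synthase) by 0.72, CYP51A1 by 0.67 and SQLE (squalene epoxidase) by 0.62.

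The smallest sterol-branch change was that of LBR, a nuclear envelope protein with sterol reductase activity, at 0.08 ± 0.02 (adjusted p = 0.00593, limma), and LBR was the only called sterol enzyme whose groups overlapped. Its call was lost without vehicle sample 2, 3 or 4 (adjusted p = 0.0242, 0.0152 and 0.0249) and without CBD sample 2 or 4 (0.0201 and 0.0285). Some of these genes overlap others in the GENCODE annotation on GRCh37. The methods call the reads first stranded but do not say whether strand was used in making the FPKM values. In the annotation 68.2% of the exonic bases of CYP51A1 are shared with a gene on its own strand, 37.3% of GGPS1 likewise, and 37.7% of HMGCS1 lie opposite a gene on the other strand.

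Of 10 tested regulators of SREBP and of LDL uptake, 6 were called higher and 1 lower. The rises numbered 4 to 6 when each 12 h sample was left out in turn. INSIG1, which holds the SREBP complex in the endoplasmic reticulum and is itself an SREBP target, was at 81.7, 79.1, 76.2 and 80.1 FPKM with CBD and at 39.7, 37.8, 37.7 and 36.1 FPKM with vehicle. The groups stood far apart, and the log2 fold change was 1.049 ± 0.033 (adjusted p = 1.94e-18, limma). STARD4, a carrier of cholesterol in the cytosol, rose by 0.80 ± 0.05. The transcripts of the factors themselves rose less, SREBF2 by 0.23 ± 0.04 (adjusted p = 2.97e-05, limma) and SREBF1 by 0.23 ± 0.06 (0.00402). The SREBF1 call was lost without vehicle sample 3 or 4 (adjusted p = 0.0109 and 0.0172) or CBD sample 2 (0.0233). MYLIP, a ubiquitin ligase, fell by 0.11, a call lost with the 12 h samples fitted alone (adjusted p = 0.0191, limma).

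Genes of cholesterol transport, efflux and storage moved little, with a median log2 fold change of 0.03. Of 17 tested, 3 were called higher (17.6%, against 8.85% of all genes) and 1 lower (5.88%, against 11.2%). GRAMD1A, which moves cholesterol from the plasma membrane to the endoplasmic reticulum, rose by 0.25, and PLIN2, a coat protein of lipid droplets, fell by 0.13.

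The rise in transcripts of cholesterol synthesis enzymes was still building between 6 and 12 h. The median log2 fold change of the mevalonate enzymes was -0.04, 0.33, 0.63 and 0.73 at 3, 6, 12 and 24 h, and that of the sterol enzymes -0.09, 0.20, 0.62 and 0.61. Between 6 and 12 h the effect was called larger for 8 of 9 mevalonate enzymes and 10 of 13 sterol enzymes, against 2.33% of all genes in either direction. Between 12 and 24 h it was called larger for 3 mevalonate enzymes and 1 sterol enzyme and smaller for 1 sterol enzyme. The share over all genes was 8.15%, in either direction. HMGCS1 went from 0.54 at 6 h to 1.23 at 12 h and 1.55 at 24 h, with both steps called, while LSS went from 0.14 through 0.82 to 0.83 and only its first step was called. For 5 sterol enzymes and 1 mevalonate enzyme the 12 h effect was called above the mean of 6 and 24 h. In this contrast the share over all genes was 0.697%, in either direction.

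Transcripts of fatty acid synthesis enzymes rose too, by less. Of 16 tested enzymes 13 were called higher and none lower, with a median log2 fold change of 0.28. ACSS2, which makes acetyl-CoA from acetate, was at 13.3, 11.4, 11.1 and 11.8 FPKM with CBD and at 5.51, 5.21, 5.53 and 5.14 FPKM with vehicle, a log2 fold change of 1.02 ± 0.04 (adjusted p = 5.95e-17, limma). ACSS2 was alone in this list in reaching 1, and its groups did not overlap. SCD, the stearoyl-CoA desaturase, rose by 0.49 ± 0.03 and ACSL4, which activates polyunsaturated fatty acids, by 0.36 ± 0.05. Fatty acid synthase itself, FASN, was at 174 to 190 FPKM with CBD and 138 to 152 FPKM with vehicle, a rise of 0.32 ± 0.05. The effect at 12 h was called above that at 6 h for 11 of the 16 enzymes, against 2.33% of all genes in either direction. Their median went from 0.01 at 6 h to 0.28 at 12 h and 0.36 at 24 h.

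FABP3, a fatty acid binding protein known from heart muscle, was at 26.8, 24.8, 22.0 and 24.4 FPKM with CBD and at 9.26, 8.69, 9.12 and 9.13 FPKM with vehicle. Its log2 fold change of 1.34 ± 0.06 (adjusted p = 2.07e-15, limma) was among the 12 largest rises, and the groups did not overlap. It kept growing, from 0.02 at 3 h and 0.37 at 6 h to 2.25 at 24 h, and both steps around 12 h were called. In phospholipid and sphingolipid synthesis, 6 of 20 tested genes were called higher and none lower. The rises numbered 4 to 5 when each 12 h sample was left out in turn. PCYT2, the rate-limiting enzyme of phosphatidylethanolamine synthesis by the ethanolamine route, rose by 0.56 ± 0.04 and LPIN1, a phosphatidate phosphatase, by 0.27 ± 0.02.

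**Figure D3:**
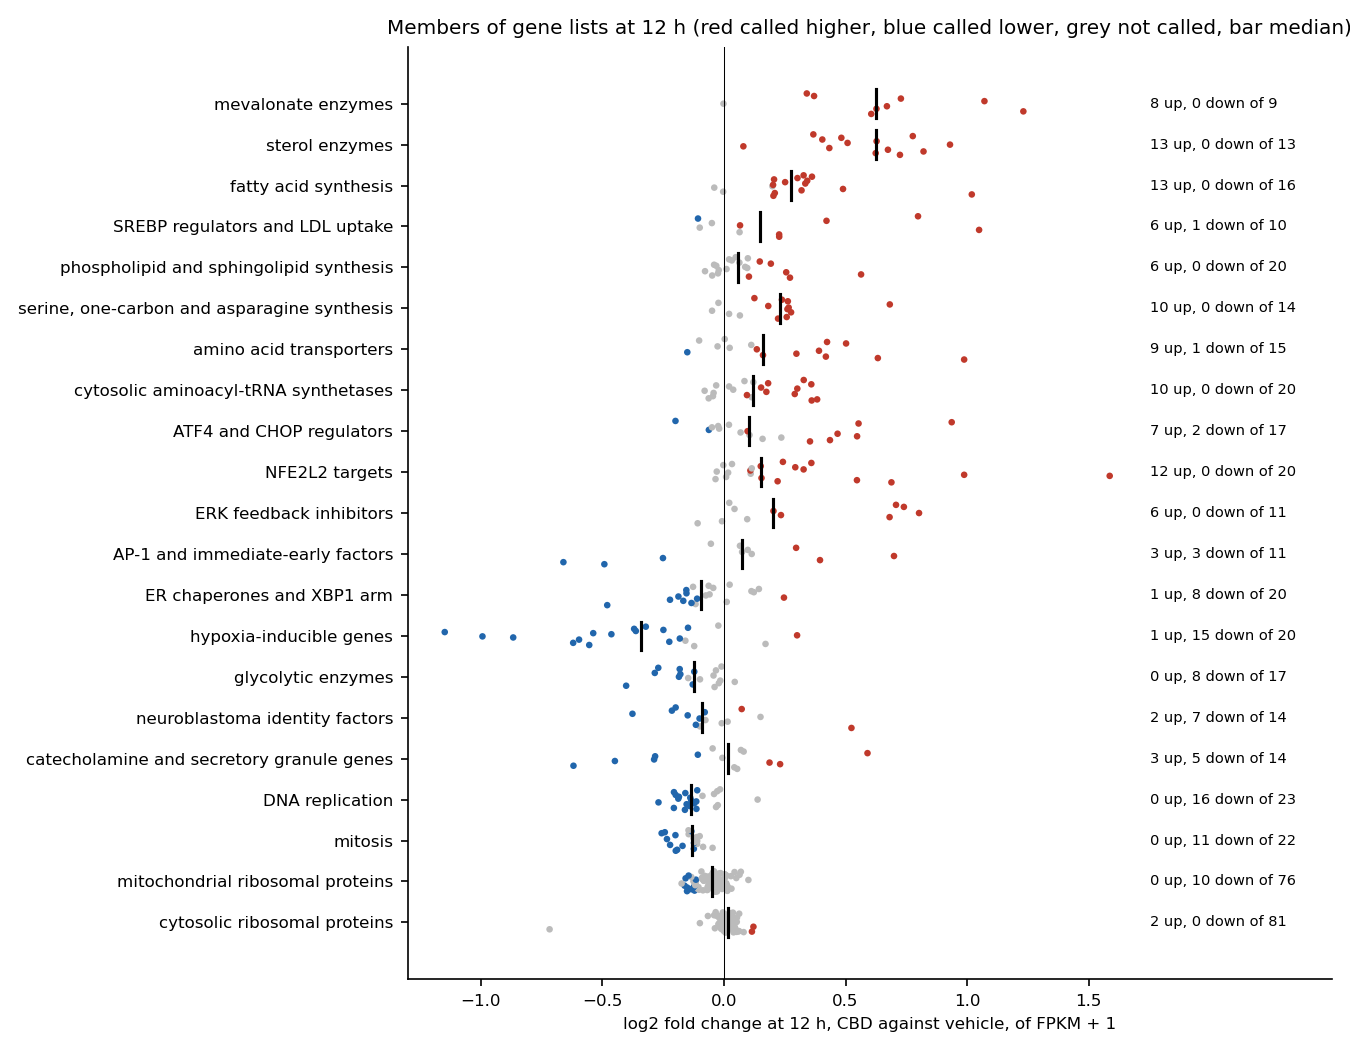
Log2 fold change at 12 h (CBD minus vehicle, log2 of FPKM + 1) of every tested member of 21 gene lists, 1 point per gene, with called genes coloured and a bar at the median of each list. The sterol and mevalonate enzymes sit right of 0 with medians of 0.62 and 0.63, the hypoxia-inducible genes left of 0 with a median of -0.34, and the metallothioneins, at 2.37 to 6.43, are not drawn.

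Targets of NFE2L2 rose in part. Of 20 tested, 12 were called higher and none lower, with a median log2 fold change of 0.15. HMOX1, which breaks down heme, was at 5.22, 4.49, 5.12 and 4.19 FPKM with CBD and at 0.886, 0.880, 0.874 and 1.01 FPKM with vehicle. Every CBD value was above 4 FPKM and every vehicle value near 1, and the log2 fold change was 1.59 ± 0.07 (adjusted p = 2.07e-15, limma). The FPKM ratio of the group means was 5.21.

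SLC7A11, the cystine importer that feeds glutathione synthesis, was at 2.202, 2.33, 2.36 and 1.92 FPKM with CBD and at 0.557, 0.611, 0.595 and 0.688 FPKM with vehicle, a log2 fold change of 0.99 ± 0.10. NQO1, a quinone reductase, was at 10.4 to 10.6 FPKM against 5.58 to 6.53 FPKM and rose by 0.69 ± 0.04. GCLM, the modifier subunit of the first enzyme of glutathione synthesis, rose by 0.55 ± 0.03. The members that were not called included TXN, SRXN1 and PRDX1. The effect was called larger at 24 h than at 12 h for 7 of the 20 and larger at 12 h than at 6 h for ME1 alone. The shares over all genes in these contrasts were 8.15% and 2.33%, in either direction. HMOX1 grew from 1.47 at 6 h and 1.59 at 12 h to 2.11 at 24 h, with the last step called (adjusted p = 0.000662, limma).

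Among 20 tested genes of heme and iron handling, 3 rose (15%, against 8.85% of all genes tested) and 2 fell (10%, against 11.2%). Besides HMOX1 these were FTH1, the ferritin heavy chain, which rose by 0.29 ± 0.03, and SLC48A1, a heme transporter, which rose by 0.42 ± 0.06. ALAS1, the rate-limiting enzyme of heme synthesis, was at 5.61, 5.02, 5.68 and 5.58 FPKM with CBD and at 11.1, 11.01, 11.2 and 10.1 FPKM with vehicle, a log2 fold change of -0.87 ± 0.03 (adjusted p = 1.6e-16, limma). TFRC, the transferrin receptor that takes up iron, was at 45.9, 45.8, 44 and 48.2 FPKM with CBD and at 74.5, 72.8, 71.4 and 72.3 FPKM with vehicle, a log2 fold change of -0.65 ± 0.03.

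The other 15 were not called. ALAS1 held nearly steady over time (-0.79, -0.87 and -0.85 at 6, 12 and 24 h), whereas the TFRC effect was called larger at 12 h than at 6 h (-0.47) or 24 h (-0.31). FTH1 shares 20.1% of its 50-base stretches with pseudogenes and lies for 63.2% of its exonic bases opposite BEST1. Of 11 superoxide and peroxide enzymes, 1 was called, PRDX4, which fell by 0.13, and that call was lost without vehicle sample 1, 2 or 3 (adjusted p = 0.014, 0.0116 and 0.0188) or CBD sample 1 (0.0174). SOD1, the cytosolic superoxide dismutase, was at 248 to 267 FPKM with CBD and 247 to 264 FPKM with vehicle, with a log2 fold change of -0.01 ± 0.03 (adjusted p = 0.783, limma).

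Transcripts of amino acid supply and tRNA charging rose, and the part of ATF4 in this was not tested. In the list of serine, one-carbon and asparagine synthesis 10 of 14 tested genes were called higher and none lower (median 0.23), and of 20 cytosolic aminoacyl-tRNA synthetases, which charge tRNAs, 10 were called higher and none lower (median 0.12). Of 15 amino acid transporters 9 were called higher and 1 lower (median 0.16). Without vehicle sample 1, CBD sample 1, 2 or 3, the single fall, SLC7A6, was lost (adjusted p = 0.0284, 0.0188, 0.0102 and 0.0278).

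ASNS, whose promoter window is given above, was at 137, 139, 142 and 123 FPKM with CBD and at 86.8, 85.2, 83.5 and 80.4 FPKM with vehicle, a log2 fold change of 0.68 ± 0.05 (adjusted p = 8.42e-12, limma). CBD sample 4 was the lowest of its group but lay above all vehicle values. In the annotation, 49.3% of its exonic bases are shared with another gene on its strand. SLC3A2, the heavy chain that pairs with SLC7A11 and SLC7A5, rose by 0.63 ± 0.05 and SLC1A5, a glutamine transporter, by 0.50 ± 0.06. The synthetases with the largest rises were CARS (0.38), AARS (0.36) and SARS (0.36).

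Of 17 tested regulators around ATF4 and CHOP, 7 were called higher and 2 lower. The transcript of ATF4 was at 277, 289, 290 and 269 FPKM with CBD and at 227, 218, 221 and 213 FPKM with vehicle, a log2 fold change of 0.35 ± 0.04 (adjusted p = 3.46e-08, limma). CHAC1, which degrades glutathione, was at 13.6, 14.3, 14.8 and 11 FPKM with CBD and at 7.34, 6.52, 6.19 and 5.96 FPKM with vehicle, a log2 fold change of 0.94 ± 0.10. SESN2, a stress-induced inhibitor of mTORC1, rose by 0.55 ± 0.10 and CEBPB, a bZIP factor that pairs with ATF4, by 0.55 ± 0.07. In each of these genes CBD samples 1 and 4 were the lower pair of the CBD group, still above every vehicle sample.

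DDIT3, which encodes CHOP, was at 15.1, 16.2, 18.0 and 12.8 FPKM with CBD and at 10.3, 11.8, 11.01 and 11.5 FPKM with vehicle, a log2 fold change of 0.44 ± 0.11 (adjusted p = 0.00236, limma). The groups did not overlap, but the call was lost without vehicle sample 1 (0.0108) or CBD sample 3 (0.0148), and 31.6% of its exonic bases lie opposite other genes. Of the ATF4 and CHOP list none was called different in effect between 6 and 12 h, and 4 were called larger and 1 smaller at 24 h. The shares over all genes in these contrasts were 2.33% and 8.15%, in either direction. The DDIT3 effect was 0.44 at 6 and at 12 h and 1.29 at 24 h (difference 0.85, adjusted p = 0.000238, limma). Both falls were small, and EIF2AK1, the heme-regulated eIF2α kinase, changed by -0.06, with its call lost without vehicle sample 1 (adjusted p = 0.0161).

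Chaperones of the endoplasmic reticulum moved the other way. Of 20 tested genes of this list and of the XBP1 arm, 8 were called lower and 1 higher, against 11.2% and 8.85% of all genes. HSPA5, the main chaperone of the compartment, was at 55.2, 56.8, 56.3 and 60.5 FPKM with CBD and at 81.7, 83.0, 79.7 and 76.2 FPKM with vehicle, a log2 fold change of -0.48 ± 0.05 (adjusted p = 6e-09, limma). PDIA4, a disulfide isomerase, fell by 0.22 ± 0.02 and DNAJB11, an HSPA5 cofactor, by 0.19 ± 0.03. The rise was that of DNAJB9, another HSPA5 cofactor, by 0.25 ± 0.03.

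XBP1, the factor of the IRE1 arm, was at 42.2 to 47.0 FPKM with CBD and 37.8 to 43.5 FPKM with vehicle, with a log2 fold change of 0.12 ± 0.05 (adjusted p = 0.0774, limma) and overlapping groups. The HSPA5 effect changed sign between 6 h (0.16) and 12 h (-0.48), a difference of -0.64 (adjusted p = 1.9e-07, limma), and was -0.42 at 24 h. For 5 of the 20 genes the 12 h effect was called below that at 6 h, against 2.33% of all genes in either direction. HSPA5 (difference -0.35) and PDIA4 (-0.15) were the 2 members called below the mean of 6 and 24 h. In this contrast 0.697% of all genes were called, in either direction.

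Of 17 tested heat shock chaperones of the cytosol, 1 was called higher and 1 lower (5.88% each, against 8.85% higher and 11.2% lower over all genes). HSPA8, the constitutive HSP70, was at 1369 to 1418 FPKM with CBD and 1159 to 1205 FPKM with vehicle, a rise of 0.23 ± 0.03. DNAJB1, an HSF1 target, changed by -0.10 ± 0.03 at 12 h (adjusted p = 0.0073, limma) after 0.30 at 6 h. The DNAJB1 groups overlapped and its call at 12 h was lost without vehicle sample 1, 2 or 3 (adjusted p = 0.033, 0.0178 and 0.0303) or CBD sample 1, 2 or 3 (0.025, 0.0119 and 0.0288). Its difference between 12 and 6 h was -0.40 (adjusted p = 2.65e-07, limma).

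Hypoxia-inducible genes were lower. Of 20 tested, 15 were called lower and 1 higher, with a median log2 fold change of -0.34, against 11.2% lower over all genes. The count of falls was 13 to 15 without single 12 h samples and 9 among members with a mean of at least 5 FPKM, since several members are of low level. HIF1A, which encodes the oxygen-sensitive subunit and is controlled mainly at the protein level, was at 56.0 to 57.9 FPKM with CBD and 56.3 to 60.5 FPKM with vehicle, a difference of -0.02 ± 0.04 on the log2 scale (adjusted p = 0.736, limma).

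SLC16A3, an exporter of lactate, was at 1.92, 2.204, 2.11 and 2.43 FPKM with CBD and at 5.37, 6.02, 6.04 and 6.65 FPKM with vehicle, a log2 fold change of -1.15 ± 0.13 (adjusted p = 7.15e-08, limma). STC1, a secreted glycoprotein, was at 2.54, 2.94, 2.90 and 3.06 FPKM with CBD and at 6.53, 6.40, 6.35 and 7.45 FPKM with vehicle (-0.99 ± 0.06). NDRG1, a differentiation-related stress gene, was at 2.23, 2.63, 2.73 and 2.502 FPKM with CBD and at 5.07, 5.72, 5.09 and 5.82 FPKM with vehicle (-0.87 ± 0.08). In all 3 genes the highest CBD value was below the lowest vehicle value, and their FPKM ratios were 0.36, 0.428 and 0.465.

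BNIP3, whose window is given above, was at 41.3, 41.8, 43.3 and 42.8 FPKM with CBD and at 60.7, 61.9, 67.0 and 68.4 FPKM with vehicle, a log2 fold change of -0.60 ± 0.06. Its values did not overlap, and it was chosen for display after its values were seen. The exception to the falls was STC2, which rose by 0.30 ± 0.06.

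Of 17 tested glycolytic enzymes 8 were called lower and none higher, with a median of -0.12. HK2, the inducible hexokinase, was at 9.09, 9.77, 10.1 and 9.60 FPKM with CBD and at 12.7, 12.4, 13.4 and 13.7 FPKM with vehicle, a log2 fold change of -0.40 ± 0.05. PGAM1, the phosphoglycerate mutase, changed by -0.28 ± 0.03 and LDHA, a lactate dehydrogenase subunit, by -0.27 ± 0.03. PGAM1 shares 40% of its 50-base stretches with other genes, mostly pseudogenes. TXNIP, an arrestin that is induced by glucose and limits its uptake, was at 19.8, 20.6, 22.5 and 20.2 FPKM with CBD and at 35.6, 34.2, 33.4 and 34.3 FPKM with vehicle, a log2 fold change of -0.70 ± 0.03, whereas its relative ARRDC3 rose by 0.30 ± 0.04.

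The falls deepened with time. The median of the hypoxia list was -0.01, -0.28, -0.34 and -0.65 at 3, 6, 12 and 24 h, and that of glycolysis 0.04, -0.04, -0.12 and -0.37. From 6 to 12 h the effect was called lower for 1 hypoxia gene, NDRG1 (difference -0.57, adjusted p = 0.00206, limma), and 3 glycolytic enzymes. From 12 to 24 h it was called lower for 10 hypoxia genes and 8 glycolytic enzymes and higher for none of either list. The shares over all genes were 2.33% between 6 and 12 h and 8.15% between 12 and 24 h, in either direction.

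The largest called fall was that of RGS4 (chr1:163038565-163046592), a regulator that shuts off G protein signals and is rich in neurons. It was at 30.0, 36.4, 35.5 and 35.6 FPKM with CBD and at 95.1, 97.0, 104 and 109 FPKM with vehicle. CBD sample 1 was lowest, the groups were far apart, and the log2 fold change was -1.53 ± 0.08 (adjusted p = 5.3e-14, limma). The effect was -0.39, -1.29, -1.53 and -2.39 at 3, 6, 12 and 24 h, with the last step called. RGS2, a relative that acts on Gq signals, fell by 0.33 ± 0.05. Of the 14 tested members of the family 3 were called lower (21.4%, against 11.2% of all genes) and 2 higher (14.3%, against 8.85%). The rises of RGS20 (0.21) and RGS17 (0.18) were small, and leaving out any one of the 8 samples removed at least 1 of them. The third fall, RGS12 (-0.13), was lost without vehicle sample 1, 2 or 3 (adjusted p = 0.025, 0.0214 and 0.0282) or CBD sample 1, 3 or 4 (0.0382, 0.0111 and 0.0218).

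Of 11 tested AP-1 and immediate-early factors, which respond within minutes to growth factors and stress, 3 rose and 3 fell. Each was 27.3% of the list, against 8.85% higher and 11.2% lower over all genes. JUN was at 16.7, 18.5, 19.3 and 17.7 FPKM with CBD and at 29.1, 29.7, 29.6 and 28.0 FPKM with vehicle, a log2 fold change of -0.66 ± 0.06, and FOSL2 changed by -0.49 ± 0.04. EGR1 was at 3.84, 4.11, 3.84 and 3.79 FPKM with CBD and at 2.19, 2.18, 1.82 and 1.89 FPKM with vehicle, a rise of 0.70 ± 0.09, and JUNB rose by 0.39 ± 0.08. The JUN fall was transient in that its effect was -0.81 at 6 h and -0.08 at 24 h, and the step after 12 h was called (0.58, adjusted p = 1.06e-05, limma).

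Transcripts of feedback inhibitors and target factors of the ERK pathway rose: 6 of 11 tested were called higher, against 8.85% of all genes, and none lower. SPRY4, an inhibitor of receptor signalling, was at 10.02, 10.01, 9.78 and 9.92 FPKM with CBD and at 5.36, 5.45, 5.02 and 5.25 FPKM with vehicle, a log2 fold change of 0.80 ± 0.04. The ETS factors ETV4 and ETV5 rose by 0.74 ± 0.05 and 0.71 ± 0.04, and DUSP6, a phosphatase of ERK, by 0.68 ± 0.04. DUSP4 and SPRED2, of the same list, had log2 fold changes of -0.01 and 0.04 and were not called.

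Genes that mark the neuroblastoma state moved in both directions. MYCN was at 2307, 2253, 2205 and 2174 FPKM with CBD and at 1584, 1543, 1560 and 1527 FPKM with vehicle, a log2 fold change of 0.52 ± 0.04 (adjusted p = 9.89e-12, limma). All CBD samples stood above all vehicle samples. The receptor kinase gene ALK fell by 0.20 ± 0.02. Of the 14 identity factors 2 were called higher and 7 lower. The 7 falls became 3 without vehicle sample 1 or 3 or CBD sample 1 and 4 without CBD sample 3, and KLF7, the other rise (0.07), was lost without vehicle sample 1, 2 or 3 or CBD sample 2 or 4 (adjusted p = 0.0108, 0.0225, 0.0409, 0.0269 and 0.0347).

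Of 14 catecholamine and secretory granule genes 5 were called lower (35.7%) and 3 higher (21.4%), against 11.2% and 8.85% of all genes. DBH, which makes noradrenaline, was at 4.40, 5.53, 5.43 and 4.74 FPKM with CBD and at 7.82, 8.36, 8.56 and 8.17 FPKM with vehicle, a log2 fold change of -0.62 ± 0.06. CHGA, a granule protein, was at 447, 440, 471 and 425 FPKM with CBD and at 581, 624, 627 and 601 FPKM with vehicle (-0.45 ± 0.06), and CHGB changed by -0.29 ± 0.06. VGF, a neuropeptide precursor, rose by 0.59 ± 0.07, from 13.8 to 16.2 FPKM in vehicle to 22.2 to 23.3 FPKM in CBD. TH, the first enzyme of the catecholamine pathway, overlapped between the groups at 223 to 248 FPKM with CBD and 201 to 246 FPKM with vehicle. Without some single 12 h samples the counts of this list were 4 falls and 2 rises.

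Among 17 neuronal cytoskeleton genes 2 fell (11.8%, against 11.2% of all genes) and 1 rose (5.88%, against 8.85%). STMN4, a regulator of microtubules, was at 22.0, 21.2, 23.5 and 21.6 FPKM with CBD and at 38.1, 38.1, 38.5 and 40.5 FPKM with vehicle, a log2 fold change of -0.79 ± 0.04 (adjusted p = 2.07e-15, limma). The STMN4 effect was called lower at 12 h than the mean of 6 and 24 h, by -0.32. Other genes among the 12 largest falls were TM4SF4, a tetraspan membrane protein (-0.86 ± 0.06), and ABCA12, a lipid transporter (-0.63 ± 0.05).

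Cell cycle transcripts were slightly lower. Of 23 tested DNA replication genes 16 were called lower and none higher (median -0.13), and of 22 mitosis genes 11 were called lower and none higher (median -0.13), against 11.2% lower over all genes. These counts were 14 to 16 and 8 to 10 without single 12 h samples. RRM2, the inducible subunit of ribonucleotide reductase, was at 59.5, 65.5, 62.7 and 68.9 FPKM with CBD and at 80.9, 77.7, 77.2 and 73.9 FPKM with vehicle, a log2 fold change of -0.27 ± 0.04. MCM4, of the replicative helicase, changed by -0.21 ± 0.02 and BIRC5, a mitotic inhibitor of apoptosis, by -0.26 ± 0.04.

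Each of these changes was below 0.3, and the groups did not overlap. From 12 to 24 h the effect was called lower for 15 of the 23 replication genes and for none of the mitosis genes, of which 2 were called higher. The share over all genes in this contrast was 8.15%, in either direction. Of 15 cyclins, CDK inhibitors and growth arrest genes 7 were called lower and 2 higher. CCND1, which drives G1 progression, was at 159, 165, 164 and 178 FPKM with CBD and at 211, 204, 197 and 194 FPKM with vehicle (-0.27 ± 0.03). CDKN2C, a CDK inhibitor, changed by -0.25 ± 0.02 and CDKN1A, which encodes p21, by 0.25 ± 0.06. The CDKN1A call was lost with the 12 h samples fitted alone (adjusted p = 0.014, limma).

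Large complexes changed little. Of 81 cytosolic ribosomal protein genes 2 were called higher and none lower, with a median of 0.02. They were RPL12 (0.12) and RPL3 (0.12), both of which share sequence with pseudogenes, and the RPL3 call was lost without vehicle sample 1 or 4 (adjusted p = 0.0121 and 0.0112) or CBD sample 1 or 3 (0.0145 and 0.0197). Both calls were lost with quantile normalization and with the 12 h samples fitted alone. Of 76 mitochondrial ribosomal protein genes 10 were called lower and none higher (median -0.05), and the falls numbered 4 without vehicle sample 1 or 3, 5 without CBD sample 1, and 6 without vehicle sample 2 or CBD sample 2 or 3. For respiratory complex I the count was 4 of 37 lower, and for complexes II to V it was 1 of 41 (2 without vehicle sample 4). For the proteasome 1 of 35 was called lower, none without vehicle sample 1 or 2 or CBD sample 1 or 3, and 3 without vehicle sample 4. Over all genes 11.2% were called lower, and no mitochondrial or proteasome gene of these lists was called higher.

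In most other lists the calls were few. Of 13 tested BCL2 family genes 1 was called, BMF, which fell by 0.19 and whose call was lost without vehicle sample 1 (adjusted p = 0.0103) or CBD sample 1 (0.0101). Of 9 AMPK subunits and kinases 1 was called higher, CAMKK1 (0.15), and lost without vehicle sample 1 or 4 (0.0264 and 0.02) or CBD sample 1 or 3 (0.0258 and 0.0183). Of 4 tested genes for proteins reported to bind CBD, CACNA1H, a calcium channel, was called higher (0.22 ± 0.05), and the cannabinoid receptor genes CNR1 and CNR2 were below the filter. Of 20 autophagy genes SQSTM1, an NFE2L2 target and autophagy receptor, was the only one called (0.36 ± 0.04).

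In 26 lysosomal genes 3 rises (11.5%) and 7 falls (26.9%) were called, against 8.85% and 11.2% over all genes. The falls numbered 3 without vehicle sample 1 or CBD sample 1 and 4 without vehicle sample 3 or CBD sample 3. GLA, a lysosomal galactosidase, changed by -0.29 ± 0.04. In 14 calcium handling genes 4 rises (28.6%) and 1 fall (7.14%) were called, with 2 rises without vehicle sample 2 or CBD sample 2 or 3. ITPR1, a channel that releases calcium from the endoplasmic reticulum, rose by 0.26 ± 0.03. In 17 host genes of small nucleolar RNAs 5 rose (29.4%) and 1 fell (5.88%). GAS5 changed by 0.28 ± 0.04, SNHG12 by 0.33 ± 0.06 and DANCR by -0.22 ± 0.03.

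**Figure D4:**
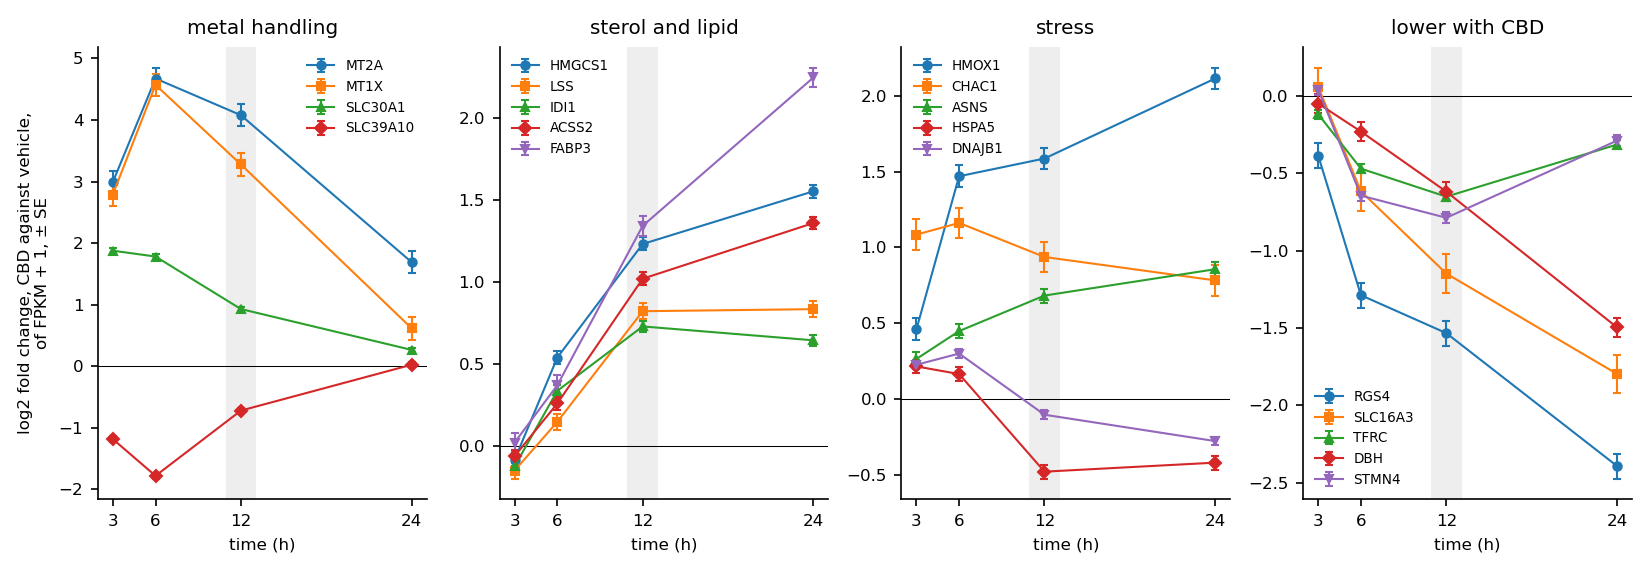
Log2 fold change (CBD minus vehicle, log2 of FPKM + 1) at 3, 6, 12 and 24 h for selected genes in 4 panels, with bars of ± 1 SE, 4 samples per group and time, and 12 h shaded. MT2A goes from 4.68 at 6 h to 4.08 at 12 h and 1.69 at 24 h, HMGCS1 rises from 0.54 through 1.23 to 1.55, and RGS4 falls from -1.29 through -1.53 to -2.39.

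For all 7 metallothioneins the 24 h effect was called smaller than that at 12 h, whereas the 12 h effect was called smaller than that at 6 h for MT1X alone. For enzyme transcripts of sterol and fatty acid synthesis 12 h was close to the 24 h level in the median. For hypoxia-inducible genes, DNA replication and NFE2L2 targets, much of the change came after 12 h. Over all genes, 2190 of the 2533 genes called at 12 h had the same sign of change at 6 h and 2435 at 24 h, and 325 genes were called at 12 h but at no other time. Whether these 325 differ in effect between times is answered only by the contrasts of effects given above.

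In the contrast of 12 h with the mean of 6 and 24 h the largest rise was MT1G, short RNA entries left aside. MEG9, a long noncoding RNA, was above that mean by 0.51 (adjusted p = 0.000925, limma) although at 12 h itself its groups overlapped (3.14 to 4.36 FPKM with CBD and 3.72 to 4.23 FPKM with vehicle, log2 fold change -0.07). Its effects at 6 and 24 h were -0.36 and -0.80. LBHD1 was at 6.28, 5.79, 5.59 and 4.66 FPKM with CBD and at 3.15, 3.21, 3.57 and 3.53 FPKM with vehicle (0.59 ± 0.07), after -0.06 at 6 h and before 0.23 at 24 h. LBHD1 overlaps neighbouring genes over 40.6% of its exonic bases on the other strand and 15.2% on its own. HSF4, a heat shock factor, rose by 0.26 ± 0.06 at 12 h while its effects at 6 and 24 h were -0.22 and -0.10. GNB3, a G protein subunit, was above the mean by 0.35 with a log2 fold change at 12 h of 0.11 that was not called (adjusted p = 0.104, limma).

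On the lower side, CREB5, a CRE-binding factor, was at 3.6, 4.06, 4.02 and 4.13 FPKM with CBD and at 5.22, 5.71, 6.00 and 6.53 FPKM with vehicle, a log2 fold change of -0.47 ± 0.05. Its effect was -0.30 at 6 h and 0.07 at 24 h, so the CREB5 fall was largest at 12 h among these times, and the difference from the mean was -0.35 (adjusted p = 0.00231, limma). TFRC (-0.26), STMN4 (-0.32) and HSPA5 (-0.35) also lay below that mean. PARTICL, a long noncoding RNA, had effects of 0.30 and 0.48 at 6 and 24 h but -0.05 at 12 h (difference -0.44, adjusted p = 0.00813, limma). TEX19 rose at 6, 12 and 24 h by 0.54, 0.48 and 1.07, and its 12 h effect was below the mean by 0.33, with 43.8% of its exonic bases opposite another gene.

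**Figure D5:**
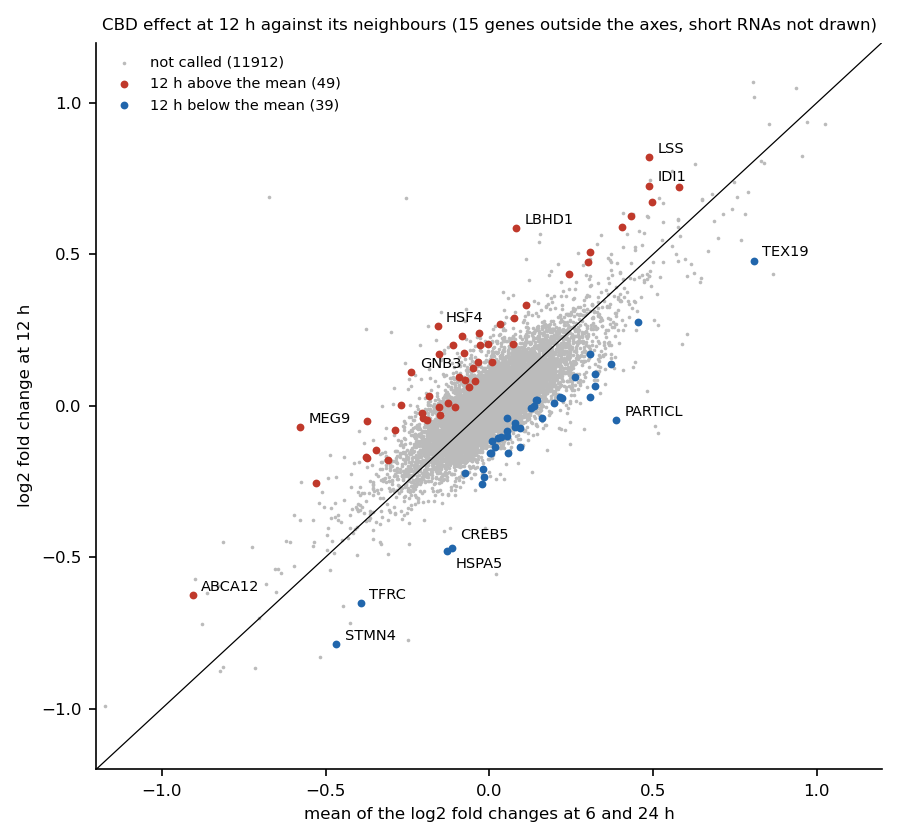
Each point is 1 tested gene, with the mean of its log2 fold changes at 6 and 24 h on the x axis and its log2 fold change at 12 h on the y axis (log2 of FPKM + 1), and the line marks equal effects. The called genes drawn, such as LBHD1 and LSS above the line and HSPA5 and CREB5 below it, stand off the line. Short RNA entries, called or not, are not drawn, and 15 genes, MT1G among them, lie outside the axes.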

How the data were processed

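The authors sequenced poly(A) RNA on an Illumina HiSeq as single reads, trimmed them with Trimmomatic 0.36, aligned them with TopHat to hg19 and deposited FPKM values per gene and sample from Cufflinks and Cuffdiff. The library kit is named differently in the labels and the methods, and the methods call the run first stranded. Whether strand was used in making the FPKM values is not given in the sources used here. A second table holds the authors' own comparisons (fold changes and p-values) and was not used. The deposited FPKM values carry no counts, so depth is known only relative to other samples (1414 genes above 0 in 2 to 8 samples).

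From the FPKM values, log2(FPKM + 1) was fitted in R 4.3.3 with limma 3.58.1 (8 group means over 32 samples, 24 residual degrees of freedom, empirical Bayes with trend) for genes with a mean of at least 1 FPKM. Benjamini-Hochberg adjustment ran over all 12621 genes within each contrast, with a threshold of 0.01. The fit was tested on simulated data. Neither labels nor methods say whether equal replicate numbers pair a CBD with a vehicle sample, and the samples were treated as unpaired. Correlations of deviations between samples of equal number were 0.0508, -0.0708, 0.0891 and -0.0687, which cannot settle whether they shared a plating. Annotation was GENCODE release 44 on GRCh37, with RefSeq promoters on GRCh38.p14.

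The comparison, gene lists and tests were chosen with earlier results of these data known. Genes were named by a rule: the 12 largest rises and falls, the 3 largest of each list and direction, the 5 largest of the contrast with the neighbouring times, and all metallothioneins and cholesterol enzymes. Short RNA entries were left out of the largest rises and falls and of the contrast with the neighbouring times. Further list members and TFRC in the last contrast were named after their values were seen. Some genes that the rule names, and 1 gene list, are not reported here. Alternatives were pseudocount, expression filter, scaling, 12 h alone, replicate block, depth, moderation, threshold and leaving out each sample of the groups compared.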

Additional observations from a re-analysis of the deposited data

Results flagged for a closer look

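Of 204 groups of 4 samples at 12 h tested, 2 for each of 101 of the genes reported and 2 for relative depth, 18 held a sample set apart from the other 3 by more than Dixon's 95% critical value. Chance flags about 1 in 20 groups. In the CBD group the genes, with the FPKM of the sample that stood apart, were IDI1 (86.5), TM7SF2 (22.1), MSMO1 (121), EBP (84.9), STARD4 (19.5), SOD1 (267), ALAS1 (5.02), LDHA (22.1), RGS4 (30.0) and RGS2 (14.3). In the vehicle group they were MT1X (7.39), MT1H (0.0577), MVK (18.6), SCD (263), HMOX1 (1.01), PDIA4 (30.6), STC1 (7.45) and CHGB (45.0). CBD samples 1 to 4 stood apart 2, 2, 2 and 4 times and vehicle samples 1 to 4 did so 3, 0, 1 and 4 times, so no sample did so throughout.

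The difference of the CBD effect between 12 and 6 h passed limma's test (adjusted p under 0.01) for 42 of these 101 genes, given here as the 12 h minus the 6 h effect in log2 of FPKM + 1. Of all genes tested, 2.33% passed. The 101 do not hold every gene named above, and ME1 is not among them. Among metal genes they were MT1X (-1.29), SLC30A1 (-0.85) and SLC39A10 (1.06). Among genes of cholesterol synthesis and uptake they were HMGCS1 (0.69), MVK (0.34), MVD (0.60), IDI1 (0.39), FDPS (0.31), GGPS1 (0.38), ACAT2 (0.45), FDFT1 (0.53), SQLE (0.27), LSS (0.68), CYP51A1 (0.47), MSMO1 (0.28), NSDHL (0.31), HSD17B7 (0.37), SC5D (0.27), DHCR7 (0.51), INSIG1 (0.35) and STARD4 (0.38). Among genes of fatty acid and phospholipid metabolism they were ACSS2 (0.76), SCD (0.28), FABP3 (0.97), PCYT2 (0.42) and LPIN1 (0.24). Among oxidative, heme, iron and chaperone genes they were HSPA5 (-0.64), PDIA4 (-0.28), DNAJB1 (-0.40) and TFRC (-0.18). Among hypoxia and glucose genes they were NDRG1 (-0.57), PGAM1 (-0.20) and LDHA (-0.18). Among signalling, neuronal and membrane genes they were ETV4 (0.33), ALK (-0.16), DBH (-0.39) and TM4SF4 (-0.52). Among cell cycle and host genes of small nucleolar RNAs they were RRM2 (-0.27) and GAS5 (0.28). Among further genes of the contrast with both neighbouring times they were LBHD1 (0.65), HSF4 (0.48) and GNB3 (0.35).

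The difference between 24 and 12 h passed for 50 of the 101 genes, against 8.15% of all genes tested. It is given as the 24 h minus the 12 h effect on the same scale. Among metal genes they were MT1G (-3.25), MT1E (-2.50), MT1F (-1.65), MT2A (-2.39), MT1X (-2.66), MT1M (-1.90), MT1H (-1.39), SLC30A1 (-0.66) and SLC39A10 (0.75). Among genes of cholesterol synthesis and uptake they were HMGCS1 (0.32), FDPS (0.37), ACAT2 (0.30), FDFT1 (0.24), LBR (-0.13), MYLIP (0.29) and SREBF2 (0.23). Among genes of fatty acid and phospholipid metabolism they were ACSS2 (0.34), FABP3 (0.91) and LPIN1 (0.09). Among oxidative, heme, iron and chaperone genes they were HMOX1 (0.53), NQO1 (0.32), FTH1 (0.30), DDIT3 (0.85), DNAJB1 (-0.17) and TFRC (0.34). Among hypoxia and glucose genes they were STC1 (-0.70), HK2 (-0.39), PGAM1 (-0.44) and ARRDC3 (0.22). Among signalling, neuronal and membrane genes they were RGS4 (-0.86), JUN (0.58), ETV4 (0.34), ETV5 (0.26), ALK (-0.19), DBH (-0.88), CHGA (-0.48), STMN4 (0.50), TM4SF4 (-0.42) and ABCA12 (-0.77). Among cell cycle and host genes of small nucleolar RNAs they were CCND1 (-0.19), MCM4 (-0.19), GAS5 (0.40) and SNHG12 (0.32). Among further genes of the contrast with both neighbouring times they were PARTICL (0.53), CREB5 (0.54), TEX19 (0.59), MEG9 (-0.73), LBHD1 (-0.36), HSF4 (-0.36) and GNB3 (-0.34). These differences share the 12 h samples with each other and with the comparison at 12 h.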

How the results depend on the processing

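The number of genes called at 12 h kept within 1.5 times of 2533 under each alternative: 1785 with the 12 h samples fitted alone, 1986 with relative depth as a term, 1954 with a mean of at least 5 FPKM and 2477 and 2479 with median-ratio scaling and quantile normalization, which moved the median of all genes by at most 0.00787 log2. At an adjusted p under 0.05, 1676 genes were called higher at 12 h, 799 between 12 and 6 h, 2056 between 24 and 12 h and 297 against the mean of 6 and 24 h. Leaving out in turn each sample of the groups compared gave 1989 to 2422 calls at 12 h (901 to 1103 higher, 1036 to 1410 lower), 183 to 366 between 12 and 6 h, 823 to 949 between 24 and 12 h, 32 to 98 against the mean, and a difference in relative depth of -0.12 to -0.0464 (exact permutation p = 0.0286 without CBD sample 2). A replicate block, although no pairing by number is given, gave 2463, 226, 937 and 40 calls in these 4 contrasts. Of 173 called genes that the naming rule chose, 134 lost no call in up to 20 alternatives and 39 lost at least 1. The losses given with single genes above are mostly those on leaving out a sample, and other alternatives removed further calls. Signs turned only for uncalled genes: SOD1 went to 0.001578 without vehicle sample 1 (-0.03697 at the lowest, without CBD sample 4), and PMVK to 0.006982 with median-ratio scaling, 0.01314 with quantile normalization, 0.01112 and 0.01699 without vehicle sample 1 or 3 and 0.004099 without CBD sample 1 (-0.02024 at the lowest on leaving out a sample, without vehicle sample 2, and -0.04081 with relative depth as a term). The cause was not tested. Read depth, unknown in absolute terms, limits genes near 1 FPKM most.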
